A study of Mus musculus with 6 samples.

Results

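Genes that make, sense and remove extracellular ATP and adenosine were examined in M2c macrophages with and without the soluble epoxide hydrolase (sEH). The 10 genes, Entpd1, Nt5e, Adora2a, Adora2b, Adora3, Ada, Adk, P2rx4, P2rx7 and P2ry6, were taken by their symbols from a count table of 19309 genes, and each symbol matched 1 row. The study compared macrophages from 3 sEH-/- mice with macrophages from 3 wild-type (WT) mice by bulk RNA sequencing, with 1 library per mouse, to find transcripts that depend on the enzyme. The sEH-/- mice carry a deletion of Ephx2, the gene for sEH, which the study lists as the cross Ephx2tm1.1Arte x Gt(ROSA)26Sortm16(Cre)Arte and describes as constitutive and global, so that it is not limited to macrophages. Controls were wild-type littermates. Bone marrow monocytes of mice aged 8 to 10 weeks spent 7 days in medium with GM-CSF and M-CSF, both at 15 ng/mL. They were turned into M1 macrophages by IFN-γ at 1 ng/mL together with LPS at 10 ng/mL, and then into M2c macrophages, which are known for the clearance of debris, by TGF-β1 at 10 ng/mL. Both genotypes received all of these agents, and no untreated or M1 library was part of the comparison. The M1 step took 24 h according to the labels and 12 h according to the methods, and TGF-β1 was present for 48 h in the labels and for 24 or 48 h in the methods. The labels do not give the sex of the mice. In its results, ahead of the RNA sequencing, the study states that its later experiments used females because sEH levels differed by sex. Its methods state that cells came from females in most experiments, and neither passage names these libraries.

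Extracellular ATP is released by stressed and dying cells and acts as a danger signal on macrophages through P2X channels and P2Y receptors. On the cell surface, CD39 (Entpd1) removes phosphates from ATP and ADP to leave AMP, and CD73 (Nt5e) turns AMP into adenosine. Adenosine then acts on a small family of G protein-coupled receptors, some of which raise cAMP and restrain inflammatory cytokine production in macrophages, until it is taken up and removed by adenosine kinase (Adk) or adenosine deaminase (Ada).

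Library totals lay between 4400197 and 6096440 counts. The deleted gene, Ephx2, had 4, 2 and 1 counts in sEH-/- replicates 1 to 3 against 26, 49 and 57 counts in WT replicates 1 to 3. Every sEH-/- library was far below every WT library, so the targeted gene and the genotype labels match (log2 fold change -4.05, SE 0.43, edgeR adjusted p = 0.0042). The labelled cell type was checked with 10 macrophage markers, which were all detected and led by Csf1r, and none of them was called between genotypes. All had a log2 fold change above 0. Cd14, named after its values were seen, had an adjusted p below 0.05 under the 1.5-fold threshold (log2 fold change 0.50, edgeR adjusted p = 0.029). Counts of Lyz2 (1153 to 1173) and Ctss (1303 to 1343) were nearly the same in every library, whatever its total. These markers could hardly show a difference. The summed level of the 10 markers was 2460 to 3060 CPM (counts scaled to one common library size after TMM normalization) in sEH-/- and 2190 to 2780 CPM in WT libraries. Of the markers of other cell types, neutrophil genes summed to 284 to 359 CPM in sEH-/- and 265 to 316 CPM in WT libraries, most of it Mmp8, and dendritic cell genes to 27.0 to 57.6 and 42.1 to 58.8 CPM, led by Clec9a, with Cd209a at 0 in all 6 libraries. Erythroid and platelet genes, led by Itga2b, summed to 2.42 to 3.93 CPM in sEH-/- and 4.61 to 6.96 CPM in WT libraries. Lymphocyte markers (Cd79b alone in the table) stayed at or below 0.463 CPM, and mast cell and basophil markers (Kit alone) at or below 0.683 CPM. In such bulk samples, fewer cells of one type and less RNA per cell cannot be told apart.

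All 10 genes passed the filter of a mean above 5 counts and were tested with the other genes, 13785 in all, by edgeR's quasi-likelihood test. A gene was called when its Benjamini-Hochberg adjusted p was below 0.05 and its fold change, sEH-/- over WT, was beyond 1.5-fold in either direction. Nt5e was called higher in sEH-/- macrophages, and the other 9 genes did not pass, against 2.61% of all tested genes called, 1.51% higher and 1.1% lower. The same gene was the one with an adjusted p below 0.05 at any fold change, against 4.01% of all tested genes. The 3 sEH-/- libraries were all above the 3 WT libraries for Nt5e, Adora2b and P2rx7, against 11.8% of all tested genes, and for none of the 10 were they all below, against 14.5%. At an unadjusted p below 0.05, 4 of the 10 passed (Nt5e, Adora2b, Adora3 and P2rx7), against 23.4% of all tested genes. The log2 fold change was above 0 for 9 of the 10 genes, with a median of 0.22, against 49.8% of all tested genes and a median of -0.00085.

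**Figure D1:**
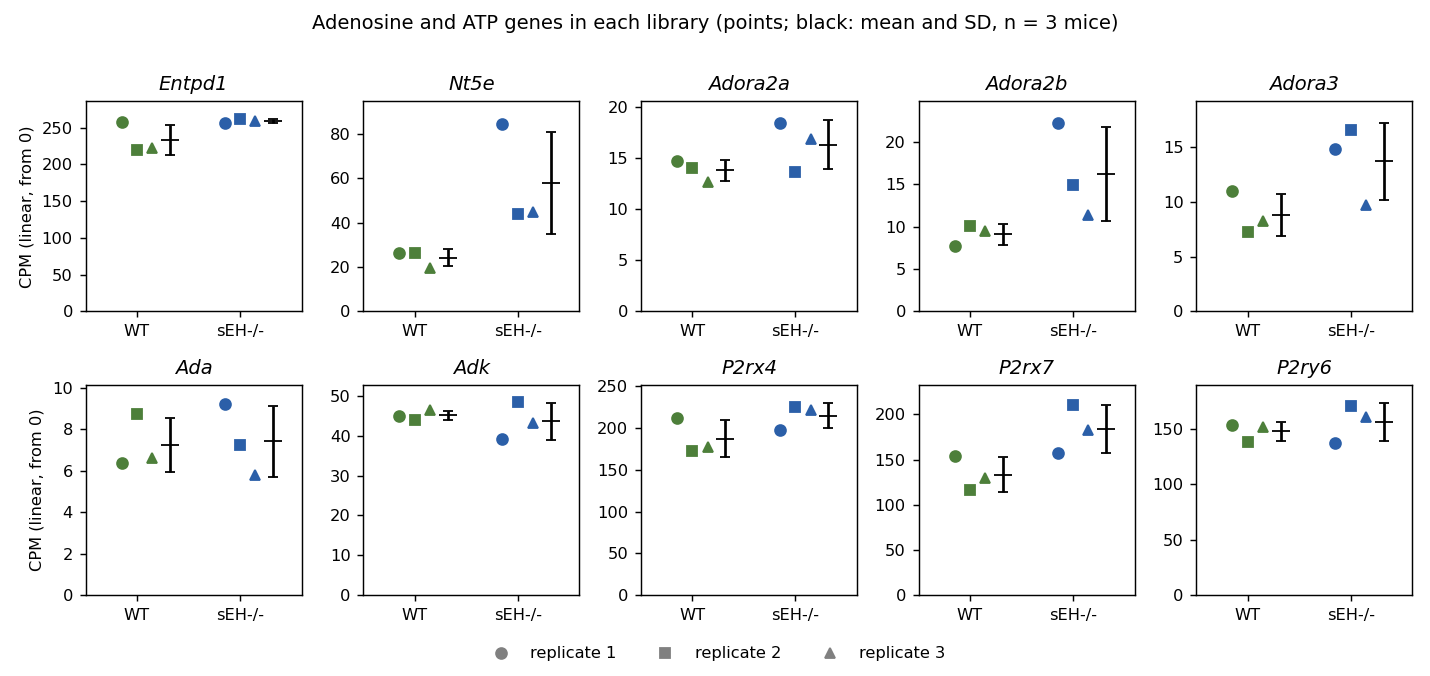
Level of each of the 10 genes in every library, as CPM on linear axes that start at 0, with green points for the 3 WT and blue points for the 3 sEH-/- libraries and black bars for the mean and SD. The 3 blue points lie above the 3 green points for Nt5e, Adora2b and P2rx7, with sEH-/- replicate 1 of Nt5e at 84.5 CPM apart from the other two, and the colours overlap for the other 7 genes.

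Entpd1 (ENSMUSG00000048120, chr19:40612366-40741602, plus strand, mm10), which catalyses the first step from ATP to AMP, was among the most abundant of the 10 genes and hardly varied between sEH-/- mice. It reached 257, 262 and 260 CPM in sEH-/- replicates 1, 2 and 3, and 257, 220 and 222 CPM in WT replicates 1, 2 and 3. The sEH-/- libraries were within a few CPM of each other, and WT replicate 1 stood level with them. The difference did not pass (log2 fold change 0.16, SE 0.080, 95% interval -0.020 to 0.33, edgeR adjusted p = 0.27), and its interval leaves out a change of the called size.

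Nt5e (ENSMUSG00000032420, chr9:88327197-88372092, plus strand), the enzyme that completes the step from AMP to adenosine, was about 2.4 times as abundant in sEH-/- macrophages. Its counts were 495, 219 and 194 in sEH-/- replicates 1 to 3, or 84.5, 44.1 and 44.9 CPM, and 120, 164 and 110 in WT replicates 1 to 3, or 26.3, 26.6 and 19.7 CPM. The genotypes did not overlap, and sEH-/- replicate 1 was far above replicates 2 and 3, which were close to each other. The means were 57.9 ± 23.1 CPM in sEH-/- and 24.2 ± 3.91 CPM in WT macrophages (SD, n = 3 mice each). The log2 fold change was 1.27 (SE 0.25, edgeR adjusted p = 0.027), or 2.42-fold with a 95% interval of 1.66 to 3.52. The coefficient of variation among sEH-/- mice was 40.0%, of which counting alone would give 5.75%, and among WT mice it was 16.2%, with 8.73% from counting. Nt5e is also known in stromal and endothelial cells, whose 7 markers were all in the table and were led by Col1a2, and none was called. They summed to 15 to 30.4 CPM in sEH-/- and 12.1 to 64.3 CPM in WT libraries. One of them, the endothelial adhesion molecule Pecam1, chosen after its values were seen, had 78 counts in sEH-/- replicate 1 and 15 to 21 counts in each of the other 5 libraries, whereas the endothelial cadherin Cdh5 had 2 to 9 counts in each of the 6 libraries. The collagen gene Col1a2 was highest in WT replicate 2, with 171 counts, against 58 and 8 in the other WT libraries and 7 to 30 in the sEH-/- libraries, and Col1a1 was likewise highest there, with 121 counts against 4 to 34 elsewhere. The part of such cells in the level of Nt5e was not tested. Without sEH-/- replicate 1 the log2 fold change of Nt5e was 0.88 (edgeR adjusted p = 0.019). The call was lost without WT replicate 2 (1.35, adjusted p = 0.11) and without WT replicate 3 (1.14, adjusted p = 0.14), fits in which 25 and 6 genes were called over the whole table.

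The 250 bases before the RefSeq start site (GRCm38.p6) were searched for a pair of short motifs. The reason was that the study examined Smad2 and Sp1 at the Ephx2 promoter and all cells here had received TGF-β1. In the study, decoys for Smad2 abolished the rise of sEH with TGF-β1, whereas decoys for Sp1 had no effect. The motifs were the Smad box CAGAC and the GC box GGGCGG, each also as its reverse complement, GTCTG and CCGCCC. The Smad elements that the study marked in the human promoter, AGAC or GTCT, are shorter. In the windows of the 10 genes no Smad box overlapped a GC box, while GC boxes of Nt5e overlapped each other in 2 places. Of 32851 RefSeq promoters, 42.2% hold a Smad box and 32.7% a GC box. For Nt5e the window holds 2 Smad boxes and 4 GC boxes. It lies within the transcribed part of a longer GENCODE transcript of the gene, so only the surroundings of the Smad boxes, 69 and 32 bases before the RefSeq start, are shown, with the Smad box in capitals:
Nt5e, chr9:88327530-88327554, plus strand: cggggagtgtGTCTGcaagcgggag
Nt5e, chr9:88327567-88327591, plus strand: gaagaggcggGTCTGtccccgcccc

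**Figure D2:**
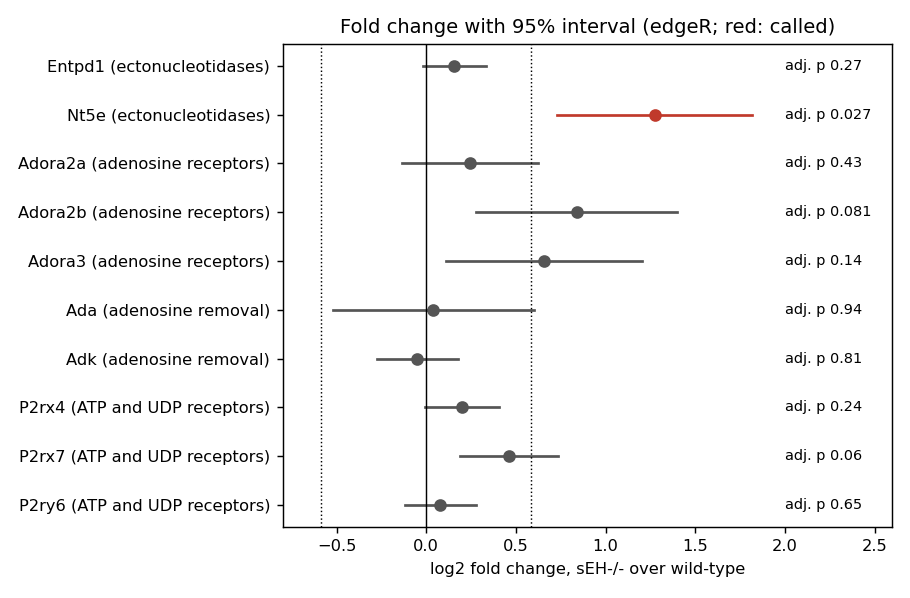
Log2 fold change, sEH-/- over WT, of the 10 genes with its 95% interval from edgeR, grouped by role, with dotted lines at the call threshold of 1.5-fold and the adjusted p at the right. Nt5e, in red, is the called gene at 1.27, the intervals of Adora2b, Adora3 and P2rx7 lie above 0 without a call, and those of the other 6 genes cross 0.

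The adenosine receptors were expressed at low levels, with 35 to 130 counts per library. Adora2b (ENSMUSG00000018500, chr11:62248984-62266453, plus strand), which encodes a receptor with low affinity for adenosine that couples to Gs and raises cAMP, was measured at 22.2, 14.9 and 11.3 CPM in sEH-/- replicates 1 to 3 and at 7.68, 10 and 9.48 CPM in WT replicates 1 to 3. The lowest sEH-/- library was just above the highest WT library, and sEH-/- replicate 1 was highest, as for Nt5e. Its means were 16.1 ± 5.54 and 9.07 ± 1.23 CPM (SD, n = 3 mice each), and its log2 fold change of 0.84 (SE 0.25, 95% interval 0.28 to 1.40) did not pass (edgeR adjusted p = 0.081). Within each genotype the order of the Adora2b levels was the order of the library totals. When edgeR was given the log2 library total as a further term the gene passed (0.97, adjusted p = 0.046), and it also passed when sEH-/- replicate 3 was left out (1.04, adjusted p = 0.034), whereas its log2 fold change was 0.53 without sEH-/- replicate 1 (adjusted p = 0.16).

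The upstream window of Adora2b holds 1 Smad box and 6 GC boxes on both strands, the most GC boxes among the windows found for the 10 genes. It is shown whole because this is the adenosine receptor whose genotypes did not overlap, with both motifs in capitals:
Adora2b, chr11:62248734-62248983, plus strand: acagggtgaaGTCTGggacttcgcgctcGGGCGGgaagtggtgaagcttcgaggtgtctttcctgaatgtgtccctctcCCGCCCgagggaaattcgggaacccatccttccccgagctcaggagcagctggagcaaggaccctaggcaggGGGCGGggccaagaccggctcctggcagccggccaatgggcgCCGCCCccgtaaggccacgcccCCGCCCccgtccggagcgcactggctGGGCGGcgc

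Adora2a (ENSMUSG00000020178, chr10:75316877-75334784, plus strand), the high-affinity receptor that also couples to Gs and is induced in inflammatory macrophages, had 18.4, 13.7 and 16.9 CPM in sEH-/- replicates 1 to 3 and 14.7, 14.1 and 12.7 CPM in WT replicates 1 to 3. The genotypes overlapped, since sEH-/- replicate 2 fell among the WT libraries (log2 fold change 0.25, SE 0.17, 95% interval -0.13 to 0.63, edgeR adjusted p = 0.43). Adora3 (ENSMUSG00000000562, chr3:105870858-105908926, plus strand), a receptor that couples to Gi and lowers cAMP, had 14.9, 16.5 and 9.72 CPM in sEH-/- replicates 1 to 3 and 11, 7.29 and 8.23 CPM in WT replicates 1 to 3. Here sEH-/- replicate 3 was below WT replicate 1, and the difference did not pass (log2 fold change 0.66, SE 0.25, 95% interval 0.11 to 1.20, adjusted p = 0.14). Adora3 shares 779 of its 3729 annotated exonic bases with Tmigd3 on the same strand, and reads over both genes were not counted. Tmigd3 itself had 2 to 6 counts per library.

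Neither enzyme that removes adenosine inside the cell passed the test. Ada (ENSMUSG00000017697, chr2:163726584-163750239, minus strand), which deaminates adenosine to inosine, had 54, 36 and 25 counts (9.22, 7.25 and 5.79 CPM) in sEH-/- replicates 1 to 3 and 29, 54 and 37 counts (6.36, 8.75 and 6.62 CPM) in WT replicates 1 to 3. The groups lay over each other (log2 fold change 0.040, SE 0.25, edgeR adjusted p = 0.94), but the 95% interval of -0.52 to 0.60 is wide, from 0.696-fold to 1.52-fold. Adk (ENSMUSG00000039197, chr14:21052574-21448569, plus strand), the kinase that returns adenosine to AMP, had 39.1, 48.3 and 43.3 CPM in sEH-/- replicates 1 to 3 and 45.0, 43.9 and 46.3 CPM in WT replicates 1 to 3. The WT libraries fell inside the range of the sEH-/- libraries, and the interval was narrow (log2 fold change -0.051, SE 0.10, 95% interval -0.28 to 0.17, adjusted p = 0.81).

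Receptors for ATP and UDP were abundant. P2rx7 (ENSMUSG00000029468, chr5:122643911-122691432, plus strand), the ATP-gated channel whose opening leads to potassium efflux and inflammasome activation in macrophages, had 157, 211 and 183 CPM in sEH-/- replicates 1 to 3 and 155, 116 and 130 CPM in WT replicates 1 to 3. The genotypes did not overlap, but sEH-/- replicate 1 and WT replicate 1 were nearly equal. In WT replicates 1 to 3 the counts were 704, 718 and 724, so WT levels in CPM ran in the reverse order of the library totals. With the log2 library total as a further term the log2 fold change of P2rx7 was 0.40 (edgeR adjusted p = 0.072). Its means were 183 ± 26.6 and 133 ± 19.4 CPM (SD, n = 3 mice each), and the log2 fold change of 0.46 (SE 0.12, 95% interval 0.19 to 0.73) was below the fold threshold, with an edgeR adjusted p of 0.060 and a DESeq2 adjusted p of 0.0078. P2rx4 (ENSMUSG00000029470, chr5:122707544-122729738, plus strand), a related ATP-gated channel encoded next to P2rx7 and largely held in lysosomes, had 197, 225 and 221 CPM in sEH-/- replicates 1 to 3 and 212, 172 and 177 CPM in WT replicates 1 to 3. WT replicate 1 was above sEH-/- replicate 1, and the difference did not pass (log2 fold change 0.20, SE 0.094, 95% interval -0.0094 to 0.41, edgeR adjusted p = 0.24). P2ry6 (ENSMUSG00000048779, chr7:100937630-100974649, minus strand), a receptor for UDP known for its part in phagocytosis, had 137, 171 and 161 CPM in sEH-/- replicates 1 to 3 and 154, 138 and 152 CPM in WT replicates 1 to 3. The groups overlapped, with sEH-/- replicate 1 the lowest library of all (log2 fold change 0.079, SE 0.090, 95% interval -0.12 to 0.28, adjusted p = 0.65). P2ry6 overlaps Gm44545 on the opposite strand, and the counting used strand.

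P2rx7 is shown upstream because, with Nt5e and Adora2b, its genotypes did not overlap. Its first RefSeq promoter holds 1 Smad box and 2 GC boxes, in capitals below, and the second GC box, 11 bases before the start, lies in the last stretch of the window, which GENCODE annotates as transcribed and which is not shown:
P2rx7, chr5:122643677-122643910, plus strand: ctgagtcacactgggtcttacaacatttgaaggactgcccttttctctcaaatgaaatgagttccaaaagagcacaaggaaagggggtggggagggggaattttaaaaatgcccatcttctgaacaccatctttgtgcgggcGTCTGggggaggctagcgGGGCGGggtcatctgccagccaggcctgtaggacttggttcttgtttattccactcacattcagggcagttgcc

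RefSeq promoters were found for 8 of the 10 genes, 11 promoters in all, and not for Adora2a and P2ry6. A Smad box was present in 9 of the 11 and a GC box in 6 of the 11, against 42.2% and 32.7% of all RefSeq promoters. Entpd1, P2rx7 and Adk each entered with 2 promoters, so the 11 are not independent. The second promoter of P2rx7 holds 2 Smad boxes and no GC box. The windows of Entpd1, 1 Smad box in each of 2 promoters and no GC box, and those of Adk, no Smad box and 2 or 3 GC boxes, differed in content. A match describes letters in a window and not a bound site.

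Per kilobase of exon, the 10 genes fell into an abundant and a scarce set in both genotypes. In WT macrophages the order was P2ry6 (51.3 CPM per kb), Entpd1 (41.8), P2rx4 (26.7), P2rx7 (22.4), Adk (5.29), Adora2b (4.92), Adora2a (4.52), Ada (3.62), Nt5e (2.81) and Adora3 (2.37), a span of 21.7-fold from highest to lowest. The WT ranges of neighbours in that order overlapped for P2rx4 and P2rx7, for Adk, Adora2b, Adora2a and Ada, each with the next, and for Nt5e and Adora3, and were apart elsewhere. In sEH-/- macrophages the first places were again P2ry6 (54.2 CPM per kb), Entpd1 (46.5), and, within each other's range, P2rx7 (30.7) and P2rx4 (30.5). Below them, Adora2b (8.75), Nt5e (6.73), Adora2a (5.34), Adk (5.11), Ada (3.71) and Adora3 (3.67) each overlapped the next. By full exon length, Nt5e thus stood 9th of the 10 in WT and 6th in sEH-/- macrophages. For Adora3 that length includes 779 of 3729 bases shared with Tmigd3, where reads were not counted, so its levels per kilobase are too low. Its last place in both genotypes, the 9th place of Nt5e in WT and the 21.7-fold span all rest on this length. The message for the ATP-degrading enzyme Entpd1 exceeded that for Nt5e, per kilobase, in every library.

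Ratios within a library, which do not depend on how libraries are scaled, were compared for 4 pairs of genes by an exact two-sided permutation test, whose smallest possible p with 3 against 3 mice is 0.1. The log2 ratio of Entpd1 to Nt5e, per kilobase, was 2.23, 3.20 and 3.16 in sEH-/- replicates 1 to 3 and 3.91, 3.68 and 4.12 in WT replicates 1 to 3. All sEH-/- libraries were below all WT libraries, and sEH-/- replicate 1 was lowest. Taken back from the mean log2 ratio, Entpd1 per kilobase was 7.26 times Nt5e in sEH-/- and 15 times Nt5e in WT macrophages. The difference was -1.04 on the log2 scale (exact permutation p = 0.1, adjusted over the 4 ratios p = 0.2). This ratio and the called fold change of Nt5e share their counts.

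The ratio of the channels P2rx7 to P2rx4 was -0.093, 0.14 and -0.042 in sEH-/- replicates 1 to 3 and -0.22, -0.33 and -0.22 in WT replicates 1 to 3 on the log2 scale. The genotypes did not overlap, although the difference of 0.26 was small (exact permutation p = 0.1, adjusted p = 0.2). For Adora2b to Adora2a the ratios were 0.998, 0.853 and 0.156 in sEH-/- and -0.206, 0.242 and 0.309 in WT replicates 1 to 3, and sEH-/- replicate 3 lay among the WT libraries (difference 0.55, exact permutation p = 0.3, adjusted p = 0.4). The Ada to Adk ratio lay between -0.81 and 0.0061 in sEH-/- and between -0.73 and -0.24 in WT libraries, with both groups over the same range (difference 0.077, exact permutation p = 0.8, adjusted p = 0.8).

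**Figure D3:**
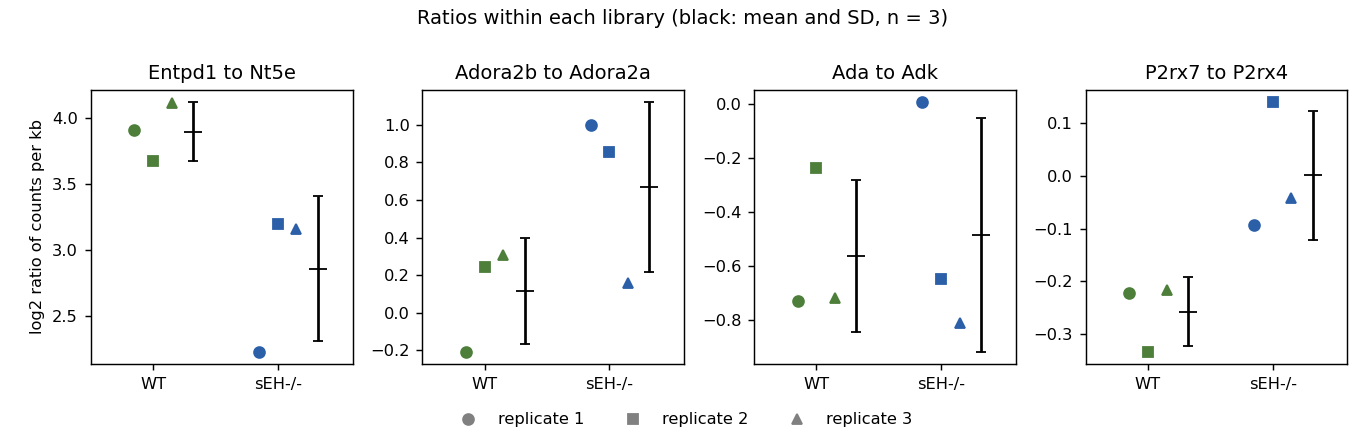
Log2 ratio of counts per kilobase for 4 pairs of genes in each library, with WT in green, sEH-/- in blue and black bars for the mean and SD of 3 mice; each panel has its own axis, which does not start at 0. The genotypes are apart for Entpd1 to Nt5e (sEH-/- lower) and P2rx7 to P2rx4 (sEH-/- higher) and overlap for the other two.

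Around these 10 genes, a list of 97 further genes of purine release, sensing, transport, metabolism and signaling was examined. Of these, 83 were in the table, 72 were tested and 6 were called, 5 higher and 1 lower, which is 8.33% against 2.61% of all tested genes. Without the branch below P2rx7, whose members Nlrp3 and Il1b the study followed up from these libraries, 4 of 62 were called (6.45%). The list was written with earlier results of these data known.

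Other P2 receptors were the group with calls in both directions. Of 7 tested, 1 was called higher and 1 lower, or 28.6%, against 2.61% of all tested genes. The median log2 fold change was -0.083. The most abundant per length was P2ry2, a receptor for ATP and UTP, at 78.9 ± 8.69 CPM in sEH-/- and 95.9 ± 7.11 CPM in WT macrophages (SD, n = 3, log2 fold change -0.28, edgeR adjusted p = 0.11). P2ry1, a Gq-coupled receptor for ADP, fell in sEH-/- macrophages: it had 20.7, 19.1 and 22 CPM in sEH-/- replicates 1 to 3 and 30.1, 38.7 and 35.8 CPM in WT replicates 1 to 3. The genotypes were well apart, and the sEH-/- libraries were close together (log2 fold change -0.77, SE 0.13, adjusted p = 0.021). P2ry13, a Gi-coupled receptor for ADP, was called higher, with 72, 126 and 67 counts (12.3, 25.4 and 15.5 CPM) in sEH-/- replicates 1 to 3 and 37, 11 and 33 counts (8.12, 1.78 and 5.91 CPM) in WT replicates 1 to 3. Its groups did not overlap but varied widely, with WT replicate 2 lowest and sEH-/- replicate 2 highest (log2 fold change 1.79, SE 0.43, adjusted p = 0.048). P2ry12, the other Gi-coupled ADP receptor, chosen after its values were seen, is encoded close to P2ry13 on chromosome 3 and had 34, 81 and 30 counts in sEH-/- and 26, 9 and 12 in WT replicates 1 to 3, also without overlap and with the same libraries highest and lowest (log2 fold change 1.70, adjusted p = 0.084). The call of P2ry13 was lost in 7 of 17 alternatives, among them limma-voom (adjusted p = 0.051), a fit with a term for the library total (0.072) and fits that left out sEH-/- replicate 2 (0.15), sEH-/- replicate 3 (0.051), WT replicate 2 (0.16) or WT replicate 3 (0.17), and that of P2ry1 without sEH-/- replicate 2 (0.066) or WT replicate 2 or 3 (0.12 for each).

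**Figure D4:**
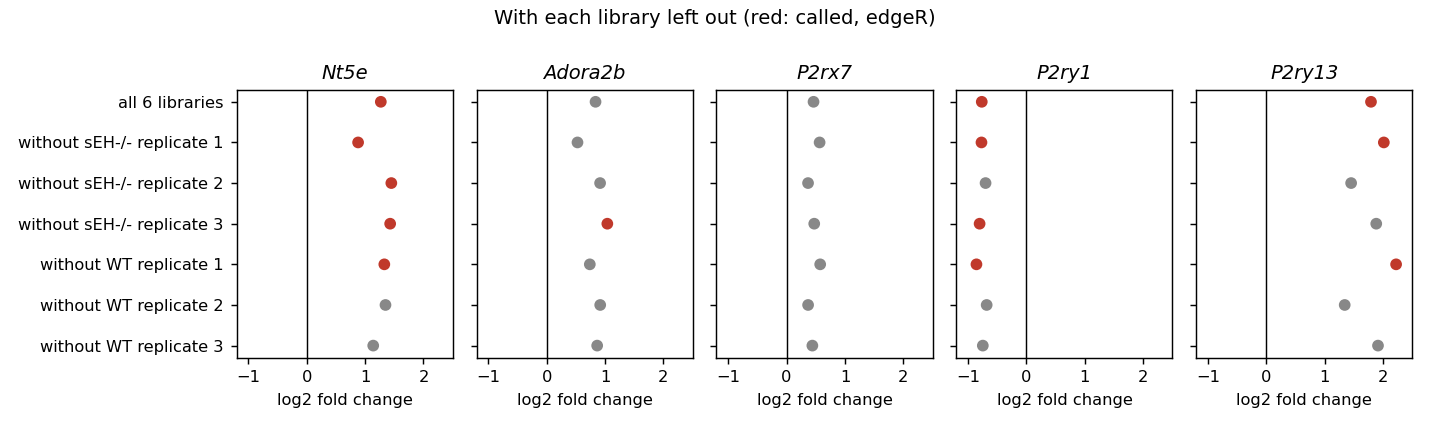
Log2 fold change, sEH-/- over WT, of Nt5e, Adora2b, P2rx7, P2ry1 and P2ry13 with all 6 libraries and with each library left out, in red where edgeR called the gene. Each gene kept its direction in all 6 fits, from 0.88 to 1.45 for Nt5e, 0.53 to 1.04 for Adora2b and -0.86 to -0.68 for P2ry1, while the calls changed with the library left out.

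Intracellular purine handling held 16 tested genes, of which 1 was called, or 6.25%, against 2.61% of all tested genes. Gda, the guanine deaminase that turns guanine into xanthine, was measured at 103, 165 and 105 CPM in sEH-/- replicates 1 to 3 and 85.8, 63.7 and 66.9 CPM in WT replicates 1 to 3. All sEH-/- libraries were above all WT libraries, with sEH-/- replicate 2 highest (log2 fold change 0.79, SE 0.18, edgeR adjusted p = 0.043). The call was lost with a term for the library total (adjusted p = 0.079) and when leaving out sEH-/- replicate 2 (0.074), WT replicate 2 (0.20) or WT replicate 3 (0.18). A further 3 genes had an adjusted p below 0.05 under the fold threshold and were chosen for it: Xdh, which makes uric acid (log2 fold change 0.52, adjusted p = 0.037), the AMP deaminase Ampd3 (0.39, adjusted p = 0.022) and the cytosolic nucleotidase Nt5c3 (0.49, adjusted p = 0.047). The gene of the group with the highest level per kilobase of exon, the salvage enzyme Hprt, had 89.5 ± 11.2 and 94.9 ± 2.17 CPM (SD, n = 3, log2 fold change -0.090, adjusted p = 0.61), and the group's median was 0.15.

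In the cAMP branch below the adenosine receptors, 1 of 23 tested genes was called, or 4.35%, against 2.61% of all tested genes. Pde4b, a phosphodiesterase that breaks down cAMP and is itself induced by inflammatory stimuli in macrophages, had 87.1, 101 and 65.0 CPM in sEH-/- replicates 1 to 3 and 38.6, 22.4 and 26.7 CPM in WT replicates 1 to 3. The lowest sEH-/- library was far above the highest WT library (log2 fold change 1.55, SE 0.20, edgeR adjusted p = 0.0087, and 0.085 without WT replicate 3). Pde3b, another cAMP phosphodiesterase, was chosen for its adjusted p of 0.049 and had a log2 fold change of 0.48, under the fold threshold. The highest per kilobase of exon, the G protein subunit Gnai2, had 294 ± 28.9 and 272 ± 32.5 CPM (SD, n = 3, log2 fold change 0.11, adjusted p = 0.57), and the median of the branch was 0.064.

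Below P2rx7, 2 of 10 tested genes were called, or 20%, against 2.61% of all tested genes. They were the inflammasome sensor Nlrp3 (log2 fold change 0.97, edgeR adjusted p = 0.0058) and the cytokine Il1b (2.31, adjusted p = 0.011). The calls were lost without WT replicate 3 (adjusted p = 0.072 and 0.089). The other 8 ran from -0.12 (Nek7) to 0.71 (Il18) on the log2 scale. Per kilobase of exon the protease Casp1 was highest, and it had 130 ± 10.7 and 121 ± 8.66 CPM (SD, n = 3, log2 fold change 0.11, adjusted p = 0.49), and the median was 0.16.

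No call was made in the remaining groups, which handle extracellular nucleotides, release ATP, carry nucleosides or are intracellular relatives of CD39. The gene named for each is the one with the highest level per kilobase of exon. The other extracellular nucleotide enzymes (8 in the table, 4 tested, median log2 fold change -0.0012) were led by the acid phosphatase Acpp, which can also turn AMP into adenosine, at 463 ± 93.1 CPM in sEH-/- and 399 ± 40.6 CPM in WT macrophages (SD, n = 3, log2 fold change 0.21, edgeR adjusted p = 0.38). Intracellular relatives of CD39 (3 tested, median -0.13) were led by Entpd5, with 63.1 ± 4.75 and 80.6 ± 11.6 CPM and all sEH-/- libraries below all WT libraries (log2 fold change -0.36, adjusted p = 0.083). ATP release genes (5 tested, median -0.16) were led by the vesicular nucleotide transporter Slc17a9, with 36.0 ± 4.90 and 40.2 ± 2.34 CPM (log2 fold change -0.16, adjusted p = 0.47). Nucleoside transporters (4 tested, median -0.12) were led by the lysosomal carrier Slc29a3, with 228 ± 12.6 and 240 ± 14.4 CPM (log2 fold change -0.077, adjusted p = 0.60).

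**Figure D5:**
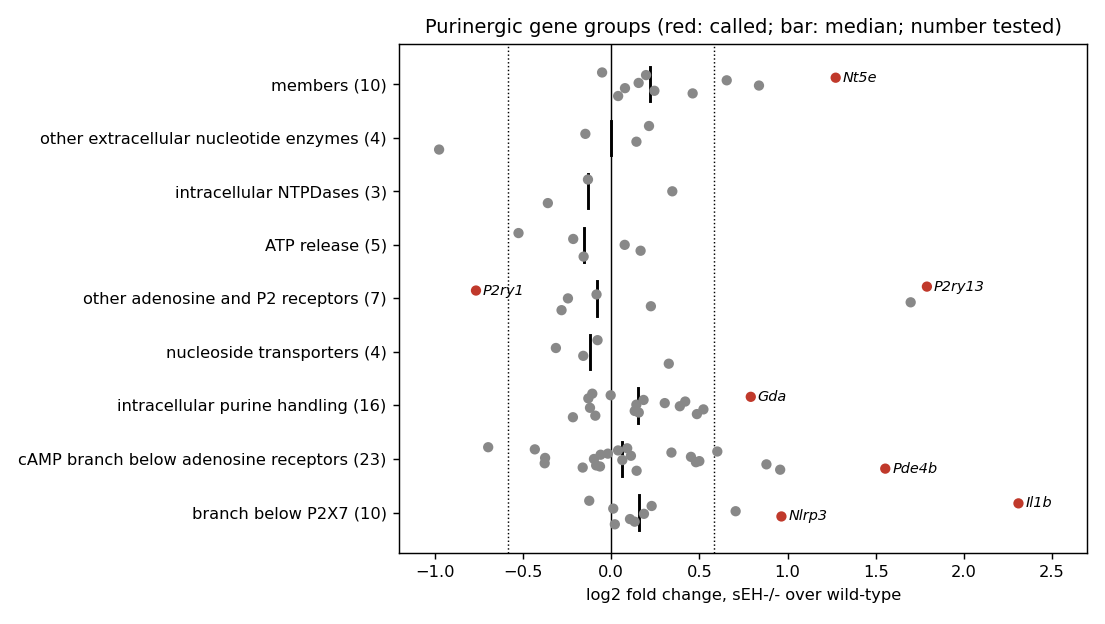
Log2 fold change, sEH-/- over WT, of each tested gene in the 10-gene set (top row) and in 8 further groups of purine genes, with the number tested in brackets, called genes in red, a black bar for each group's median and dotted lines at 1.5-fold in either direction. Called genes are Nt5e, P2ry13, Gda, Pde4b, Nlrp3 and Il1b to the right and P2ry1 to the left, while the group medians stay between -0.16 and 0.22.

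The genes whose pattern over the 6 libraries was most like that of Nt5e were sought among the 10276 tested genes that averaged 50 counts or more, by the root mean square difference of log2 CPM centred on each gene's own mean. They were the zinc transporter Slc39a4 (0.15), the potassium channel Kcna3 (0.21) and the unnamed transcript A930037H05Rik (0.23). The median over all candidates was 0.70. The search took the smallest values, so their place below the median was given in advance. Slc39a4 had 31.1, 21.1 and 22.7 CPM in sEH-/- replicates 1 to 3 and 11.4, 10.7 and 8.41 CPM in WT replicates 1 to 3. As for Nt5e, sEH-/- replicate 1 was highest, the other sEH-/- libraries were close together, and WT replicate 3 was lowest. These points share libraries and depth, and the shared order is what the search looked for. The likeness is a description over 6 libraries.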

How the data were processed

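Raw counts per gene were deposited. Per the labels, the authors trimmed reads with Trimmomatic 0.39, aligned them to mm10 with STAR 2.7.7a, removed duplicates with Picard 2.21.7 and counted with featureCounts 1.6.5, and the methods, which give partly other versions, add that multi-mapping, ribosomal and mitochondrial reads and reads over several genes were left out and that counting was strand-specific. Labels and methods differ in the library kit (mRNA against total RNA). Removing duplicates limits counts for abundant genes: the highest gene, Ctss, had 0.972 counts per exonic base, and the highest of the 10 genes, P2ry6, had 0.274.

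Tests were run on the deposited counts with edgeR 4.0.16 under R 4.3.3 (TMM factors 0.982 to 1.03, glmQLFit and glmQLFTest, no covariate, genes with a mean above 5 counts, Benjamini-Hochberg adjustment over 13785 genes). Over the table, 360 genes were called, 208 higher and 152 lower. SE is the log2 fold change over the square root of F. No library repeated another of its genotype (chi-square per degree of freedom 2.24 to 4.89), so all 6 were kept as separate. The edgeR p-values weigh the difference between genotypes against the spread between mice, with 1 library per mouse. Exon lengths, positions and overlaps came from GENCODE M21, which held 19286 of the identifiers, and upstream sequences from RefSeq (GRCm38.p6). The scripts were tested on simulated counts.

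The genes, lists and motifs were chosen with earlier results of these data known. Besides the 10 genes, the text names called genes of the purine list, the most abundant gene per length in each of its groups, the 3 genes most like each called member, Ephx2 and the leading or absent markers. Of the genes that overlap a member, those in the count table, Tmigd3 and Gm44545, are named as well. Entpd1, Adk and P2rx7 also overlap annotated genes on their own strand that are not in the count table and are not named. Others were chosen after their values were seen, among them Pde3b, Nek7, Il18, Col1a1, Cdh5, Cd14 and Lyz2, and not all are marked so where they appear. Symbols from the lists that matched no row, 39 in all, were not analysed here. Alternatives were DESeq2 1.42.0, limma 3.58.1 (voom), RLE or no normalization factors, other count filters, thinning to the smallest library, the replicate number as a block, the log2 library total as a covariate, no fold threshold, 1 count added in ratios, leaving out each library, and, chosen after seeing the data, a correction that assumes at most 1 count per exonic base.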

Additional observations from a re-analysis of the deposited data

How the results depend on the processing

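Nt5e was called in 15 of 17 alternatives, with edgeR adjusted p (or that of the alternative tool) from 4.69e-06 to 0.14, and its log2 fold change with each library left out was 0.88 to 1.45. Adora2b, not called in the reported fit, passed with the library total as a covariate (0.974) and, leaving out each library, ranged from 0.529 to 1.04, passing without sEH-/- replicate 3. Ada ranged from -0.155 to 0.203 with a library left out and changed sign without sEH-/- replicate 1 (-0.155), WT replicate 1 (-0.040) and WT replicate 3 (-0.0264), Adk ranged from -0.116 to 0.0267 and changed sign without sEH-/- replicate 1 (0.0267), their log2 ratio ranged from -0.168 to 0.241 and changed sign without the same libraries as Ada (-0.168, -0.00747 and -0.000393), and Hprt ranged from -0.157 to 0.0108 and changed sign without sEH-/- replicate 1 (0.0108). The other 6 genes kept their direction and were not called in any alternative run, although the adjusted p of P2rx7 was below 0.05, under the fold threshold, with DESeq2 (0.0078), with no filter (0.037) and without sEH-/- replicate 1 (0.030) or WT replicate 1 (0.025). The other 3 ratios kept their direction, and their test could not pass 0.05 under any setting.

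Of the 10 genes, 2 were called with the library total as a covariate and 0 to 2 with a library left out. Of the purine list, 10 rather than 6 were called without the fold threshold and 0 to 10 with a library left out, with 0 without WT replicate 3, 3 without sEH-/- replicate 2 or WT replicate 2, and 10 without sEH-/- replicate 3. Over the whole table, calls moved from 360 to 553 without the fold threshold, 171 with the covariate, and 518, 96 and 570 without sEH-/- replicates 1, 2 and 3 and 625, 25 and 6 without WT replicates 1, 2 and 3. The causes were not tested.

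The replicate numbers gave no sign of pairing: same-numbered deviations correlated at -0.0859, -0.269 and -0.0383, and no library correlated best with its own number. Whether same-numbered mice were littermates cannot be told from such correlations. With the replicate block, Nt5e had a log2 fold change of 1.20 (edgeR adjusted p = 0.0088), 1 of the 10 genes and 5 of the purine list were called, P2ry13 was not (1.79, adjusted p = 0.074), and 234 genes were called over the table.

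The adenosine receptors had 35 to 130 counts per library and Ada 25 to 54, and how depth limits their tests was not examined apart from the spread between mice.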
